A study of Caenorhabditis elegans with 14 samples.

Results

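The small heat shock protein genes outside the hsp-16 group were followed through reduced insulin signaling, RNAi of its transcription factors and heat shock in whole Caenorhabditis elegans. The 8 genes hsp-12.1, hsp-12.2, hsp-12.3, hsp-12.6, hsp-17, hsp-25, hsp-43 and sip-1 were taken by name from the 46856 genes of the deposited tables, and all 8 passed the filter on low counts in every comparison. RNA of worms grown at 20 °C gave 14 libraries for 7 groups, 2 per group, and the study calls the pair in a group biological replicates. The study gives the stage of the worms as L4 to young adult in its results and as young adult to gravid in its methods. Every group carried rrf-3(pk1426), a mutation that sensitizes worms to RNAi. C was this strain on empty vector, rIIS-C (reduced insulin/IGF-1 signaling control) carried in addition daf-2(e1368), a mutant insulin receptor, on empty vector, and C (HS) and rIIS-C (HS) were, by their labels, the same 2 strains after 33 °C for 2 hours. The groups daf-16i and skn-1i were rrf-3(pk1426);daf-2(e1368) worms on RNAi of the named factor at 20 °C, and hsf-1i (HS) was the same strain on hsf-1 RNAi after heat shock. RNAi acted on whole worms through feeding, and no group of rrf-3 worms without the daf-2 allele received RNAi of a factor.

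Small heat shock proteins share an α-crystallin domain, assemble into oligomers and hold unfolding proteins in a soluble state without using ATP, so that ATP-dependent chaperones can refold them later. The hsp-16 proteins of the worm are the classical heat-inducible members. The other members differ: the HSP-12 proteins are the shortest, with very short tails around the domain, SIP-1 is a chaperone of oocytes and embryos, HSP-25 has been localized to muscle attachment structures, HSP-43 is a longer protein found in body wall muscle and reproductive structures, and HSP-17 is a further member of the family.

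The coding exons of the 8 genes, given here by the deposited coordinates on WBcel235, measured from 330 to 1182 bases. On chromosome IV, hsp-12.3 (9444898 to 9445279, 330 coding bases) and hsp-12.6 (9446385 to 9446884, 333 coding bases) lay on the same minus strand with 1105 bases between their coding spans. Chromosome III carried hsp-12.2 (8138121 to 8139490, plus strand, 333 coding bases) and sip-1 (10506172 to 10506707, minus strand, 480 coding bases). Chromosome X carried hsp-25 (6034747 to 6039463, minus strand, 660 coding bases) and hsp-43 (6233327 to 6235516, minus strand, 1182 coding bases). The remaining pair was hsp-12.1 on chromosome I (10581690 to 10582608, minus strand, 339 coding bases) and hsp-17 on chromosome V (8384894 to 8385914, minus strand, 450 coding bases). Between 99.9% and 100% of the exon reads of each gene in each library were uniquely placed, so the members did not share reads with one another to any extent that the tables show.

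Several properties of the libraries touch the results. Depth was lowest in rIIS-C replicate 1, with 4681170 exon reads, and highest in C (HS) replicate 1, with 22767301, and the members had from 4 reads in a library (hsp-12.1 and hsp-12.6) to 35563 (sip-1). Outside C (HS), exon reads crossing a junction were 9.39% to 9.89% of the total in 1 library of each group and 22.6% to 26.3% in the other, while both C (HS) libraries lay between (14.3% and 16.7%). Replicate 2 of skn-1i had 12.8% of its gene reads in introns where the other 13 libraries had 2.91% to 5.62%, and the part of this in the skn-1i results was not tested. The study names 2 read lengths, and the sample labels do not say which library had which. The libraries are therefore split by junction share alone, into a junction class with fewer and one with more junction reads. Whether these classes stand for the read lengths was not tested, and C (HS) fits neither class. Values within each class are given beside the results. The libraries labelled rIIS-C (HS) went against their label in the hsp-16 genes. The summed RPKM (exon reads per exon length and sequencing depth, the authors' values) of the 6 hsp-16 genes was 360 and 386 in C and 44447 and 37676 in C (HS), but 883 and 511 in rIIS-C (HS) against 860 and 3022 in rIIS-C at 20 °C. Of these 6 genes, 0 changed between rIIS-C and rIIS-C (HS) by edgeR, while 5 had an unadjusted p under 0.05 and 1 was called by DESeq2. In C (HS) replicate 1, hsp-16.1 and hsp-16.11 had 94720 and 94804 exon reads, and hsp-16.48 and hsp-16.49 had 116391 and 115875. Unique placement of reads was not examined for the hsp-16 genes, so the 6 may not be independent readouts. Among the RNAi targets, skn-1 stood at 26.2 and 25.3 scaled CPM (exon reads relative to library size, the size corrected with edgeR's TMM factors) in skn-1i against 153 and 102 in rIIS-C, and hsf-1 at 13.6 and 13.9 in hsf-1i (HS) against 34.2 and 42.0 in rIIS-C (HS). For daf-16 the groups overlapped, with 51.7 and 40.7 in daf-16i against 85.9 and 49.9 in rIIS-C. With 2 libraries a group, p-values measure only the spread between these libraries, and in RNA of whole worms fewer cells of a type and less RNA per cell cannot be told apart.

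Per length, sip-1 was the most abundant member in all 14 libraries. Its RPKM ran from 819 to 3265 with a median of 1757, above at least 98.9% of the genes with reads in each library. It supplied from 61.1% (C (HS) replicate 1) to 87.3% (rIIS-C replicate 1) of the RPKM summed over the 8 genes. The muscle-associated pair followed, hsp-25 at 137 to 388 RPKM and hsp-43 at 94.0 to 165 RPKM, and hsp-17 reached 38.7 to 605 RPKM. The HSP-12 genes were the lowest: hsp-12.2 at 15.2 to 67.0 RPKM, hsp-12.3 at 7.36 to 51.3, hsp-12.1 at 1.62 to 18.03 and hsp-12.6 at 2.19 to 15.2. In C the order of the 8 genes by RPKM had no overlap between neighbours. In C (HS) hsp-17 and hsp-25 overlapped, as did hsp-12.1 with hsp-12.6 and hsp-12.6 with hsp-12.3. In rIIS-C the libraries of hsp-25 overlapped those of hsp-43, and hsp-43 those of hsp-17, and hsp-12.1 overlapped with hsp-12.6. The summed RPKM of the members was 1253 and 1308 in C, 1639 and 4433 in C (HS), 2706 and 2280 in rIIS-C, 2332 and 2016 in rIIS-C (HS), 1398 and 1488 in daf-16i, 3286 and 3100 in skn-1i, and 2747 and 2784 in hsf-1i (HS). These sums carry no TMM scaling and mainly follow sip-1.

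**Figure D1:**
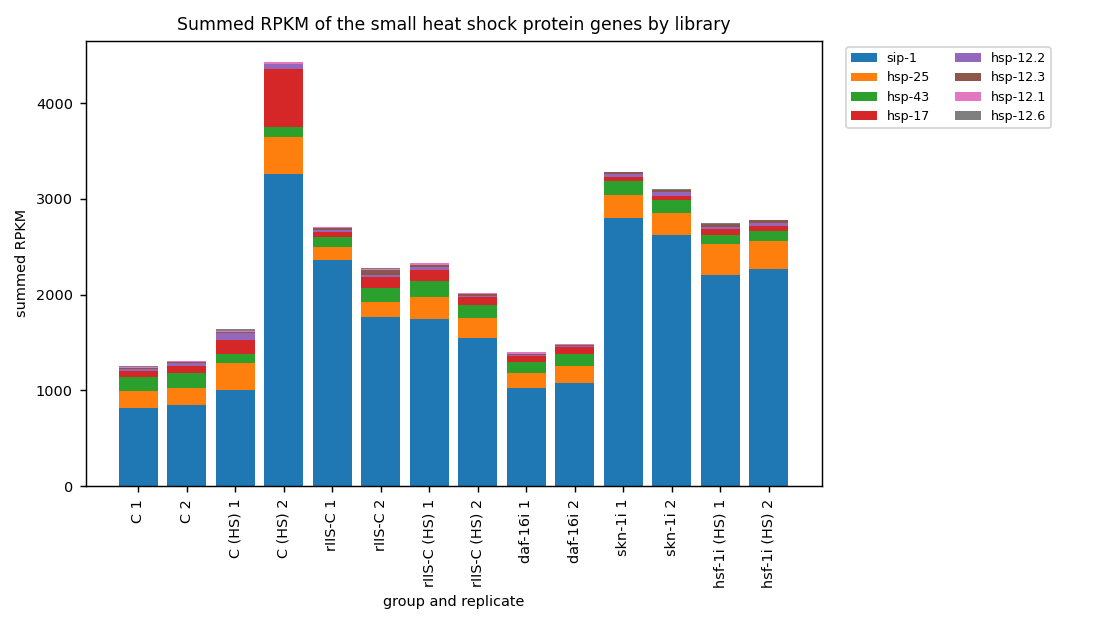
RPKM of the 8 small heat shock protein genes summed in each of the 14 libraries (y axis, RPKM, starting at 0), with 1 stacked bar per library (x axis, group and replicate number) and 1 colour per gene. The sip-1 segment makes up most of every bar, from 61.1% to 87.3%, and the 2 C (HS) bars differ most within a group, at 1639 and 4433.

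Reduced insulin signaling at 20 °C raised 2 of the 8 genes, hsp-12.3 and sip-1, and lowered none by the test. Of 13892 genes tested between rIIS-C and C, 11% were called in either direction, where a call is an adjusted p under 0.05 in edgeR's quasi-likelihood test. The short chaperone gene hsp-12.3 had 6.9 and 12.06 scaled CPM in rIIS-C and 2.7 and 2.7 in C. Both rIIS-C libraries were higher than both C libraries. The log2 ratio (base 2 logarithm of the fold change as fitted, here rIIS-C over C) was 1.86 (SE 0.31, edgeR adjusted p = 0.00266). Within the junction classes it was 1.35 (fewer junction reads) and 2.15 (more junction reads). The oocyte and embryo chaperone sip-1 had 1018 and 605 scaled CPM in rIIS-C and 342 and 346 in C, again without overlap. Its log2 ratio was 1.24 (SE 0.21, edgeR adjusted p = 0.00299), with 1.58 and 0.80 within the classes. In 1 fit of all 14 libraries, which includes the wider spread of C (HS), sip-1 lost its call (edgeR adjusted p = 0.121).

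The oocyte markers moved with sip-1 and their part in its rise was not tested. All 8 oocyte markers (oma-1, oma-2, cpg-1, cpg-2, rme-2, puf-5, egg-1 and mex-5) had reads in every library, and their summed level was 3574 to 6266 scaled CPM in rIIS-C and 2822 to 3133 in C. Of the 8, 3 rose in rIIS-C against C, with a median log2 ratio of 0.68 over the list. Of 8 body wall muscle markers (unc-54, myo-3, unc-15, unc-22, unc-27, mup-2, tnt-2 and unc-87), 5 fell, and their summed level was 2029 to 2633 scaled CPM in rIIS-C and 3882 to 4030 in C. The muscle-associated genes lay lower in rIIS-C as well without passing the test: hsp-25 had 81.4 and 72.1 scaled CPM against 102 and 103 in C (log2 ratio −0.42, edgeR adjusted p = 0.0805), and hsp-43 had 107 and 120 against 147 and 157 (−0.42, edgeR adjusted p = 0.109). Another gene in this range was hsp-12.2 at 4.5 and 5.1 against 6.8 and 8.5 scaled CPM (−0.64, edgeR adjusted p = 0.142). With the junction class as a block these 3 genes passed the test as lower, and 5 members were called in all. The values were edgeR adjusted p = 0.0342 for hsp-12.2, 0.0324 for hsp-25 and 0.0238 for hsp-43. The remaining members, hsp-12.1, hsp-12.6 and hsp-17, had log2 ratios of −0.54, 0.15 and 0.32 and were not called. The median over the 8 members was −0.13, beside 0.06 over all genes tested, while the 6 hsp-16 genes all rose with a median of 2.28.

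RNAi of daf-16, the FOXO factor downstream of the insulin receptor, was compared with rIIS-C to ask which levels under reduced insulin signaling depend on it. The same 2 genes were activated, meaning higher in rIIS-C than in daf-16i, and none was repressed, where 6.07% of 13892 genes were called in either direction. For hsp-12.3 the daf-16i libraries held 2.1 and 2.8 scaled CPM, below the 6.9 and 12.06 of rIIS-C. The log2 ratio of rIIS-C over daf-16i was 1.99 (SE 0.33, edgeR adjusted p = 0.00352), with 1.74 and 2.11 within the junction classes. For sip-1 the daf-16i libraries held 420 and 446 scaled CPM against 1018 and 605, a log2 ratio of 0.91 (SE 0.21, edgeR adjusted p = 0.0257). Within the classes the sip-1 values were 1.28 and 0.44. Leaving out rIIS-C replicate 1 gave sip-1 a log2 ratio of 0.48 (edgeR adjusted p = 0.0512), and its call was also lost without either daf-16i library. The summed level of the oocyte markers was 3574 to 6266 scaled CPM in rIIS-C and 3199 to 3350 in daf-16i. Of these 8 genes, 0 were called by edgeR, 7 had an unadjusted p under 0.05 and 3 were called by DESeq2, with log2 ratios from 0.40 to 0.68. Their part in the sip-1 difference was not tested. The call of hsp-12.3 held in all 12 alternatives run for it. Of its neighbour hsp-12.6, the libraries held 0.67 and 1.6 scaled CPM in rIIS-C and 0.76 and 0.67 in daf-16i, which overlap (log2 ratio 0.85, SE 0.49, edgeR adjusted p = 0.401). The other 5 members had log2 ratios between −0.42 and 0.38 and were not called. As rIIS-C serves in both comparisons, the rise over C and the rise over daf-16i share their libraries.

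Compared with C directly, daf-16i showed 0 of 8 members called by edgeR, 1 at an unadjusted p under 0.05 (hsp-12.2) and 0 by DESeq2, where 1.59% of 13892 genes were called. These 2 groups differ in both the daf-2 allele and the RNAi. The log2 differences ran from −0.69 (hsp-12.6) to 0.33 (sip-1), with −0.63 for hsp-12.2, −0.30 for hsp-43, −0.15 for hsp-25, −0.13 for hsp-12.1 and −0.06 for hsp-17. The value of hsp-12.3 was −0.12 (SE 0.35) and that of sip-1 was 0.33 (SE 0.21), so both daf-16i libraries of sip-1 remained above both C libraries (420 and 446 against 342 and 346) without passing the test.

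In skn-1i, 4 members were higher than in rIIS-C and 1 was lower, where 56.2% of 13892 genes were called. The share of members called was thus near that of all genes. By direction, 25.7% of all genes tested were higher in skn-1i and 30.6% lower. SKN-1 is the worm Nrf factor for oxidative and xenobiotic defence. The muscle-associated hsp-25 had 233 and 260 scaled CPM in skn-1i against 81.4 and 72.1 in rIIS-C, a log2 ratio of rIIS-C over skn-1i of −1.69 (SE 0.14, edgeR adjusted p = 3.98e-06). The longer hsp-43 had 259 and 295 against 107 and 120 (−1.29, SE 0.15, edgeR adjusted p = 3.8e-05). Both genes were higher in both skn-1i libraries, and the 2 groups did not overlap. For sip-1, 1988 and 2224 scaled CPM in skn-1i stood against 1018 and 605 (−1.38, SE 0.21, edgeR adjusted p = 0.000241). For hsp-12.2, 14.4 and 21.1 stood against 4.5 and 5.1 (−1.87, SE 0.26, edgeR adjusted p = 0.000111). Within the junction classes all 4 kept this direction, from −0.97 (sip-1, fewer junction reads) to −2.04 (hsp-12.2, more junction reads). With library totals in place of TMM, which moved the median of all genes from 0.13 to 1.10, hsp-43 stood at −0.31 and lost its call (edgeR adjusted p = 0.136), and hsp-17 was called at 1.13. The calls of sip-1, hsp-25 and hsp-12.2 held on that scale with smaller values of −0.46, −0.73 and −0.87.

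The gene activated in this comparison was hsp-12.1. It had 1.7 and 2.9 scaled CPM in rIIS-C and 0.81 and 1.2 in skn-1i, a log2 ratio of 1.25 (SE 0.48, edgeR adjusted p = 0.0442). These are few reads, 4 in 1 of the libraries, and the call held in 6 of 12 alternatives. It was lost, among others, without rIIS-C replicate 2 (0.70, edgeR adjusted p = 0.399) and without either skn-1i library. The libraries of hsp-12.3, hsp-12.6 and hsp-17 overlapped between the 2 groups, and these genes had log2 ratios of −0.50, −0.07 and 0.12. The median over the 8 members was −0.90, beside 0.13 over all genes tested and −0.34 over the 2594 genes tested with 330 to 660 coding bases. Of these 2594 genes, 38.4% were higher in skn-1i and 21.9% lower. The part of gene length in the differences of the members was not tested. Body wall muscle markers moved with hsp-25 and hsp-43: 7 of 8 were higher in skn-1i, 1 was lower, and their summed level was 14237 to 15082 scaled CPM in skn-1i against 2029 to 2633 in rIIS-C. This was not limited to muscle. Of the intestine markers (elt-2, ges-1, ifb-2, pept-1, act-5 and vha-6), 4 of 6 were higher in skn-1i and 1 lower. They summed to 2552 to 2644 against 1069 to 1483. Of the 8 oocyte markers, 3 were higher in rIIS-C and none lower, with a median log2 ratio of 0.22, where sip-1 stood at −1.38. The part of any of these lists in the differences was not tested.

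Against C, skn-1i showed 5 members higher and 1 lower, where 59.5% of 13892 genes were called. These 2 groups differ in both the daf-2 allele and the RNAi, which this comparison alone cannot tell apart. For sip-1 the step was from 342 and 346 scaled CPM in C to 1988 and 2224 (log2 ratio 2.62, SE 0.22, edgeR adjusted p = 2.99e-06). The hsp-12.3 libraries went from 2.7 and 2.7 to 11.6 and 16.03 (2.36, SE 0.32, edgeR adjusted p = 7.67e-05). The C and skn-1i libraries did not overlap in either gene. The other rises were 1.27 for hsp-25, 1.23 for hsp-12.2 and 0.87 for hsp-43, and hsp-12.1 was lower (−1.79, SE 0.46, edgeR adjusted p = 0.0054). The rises of hsp-12.2 and hsp-43 depended on TMM scaling. On library totals they were 0.37 and 0.02 and not called, in a comparison in which the median of all genes then moved from −0.08 to −0.93. The other members, hsp-12.6 (0.23) and hsp-17 (0.20), were not called. Marker lists of 3 tissues moved along with these rises. Body wall muscle markers summed to 14237 to 15082 scaled CPM in skn-1i against 3882 to 4030 in C (7 of 8 higher, 1 lower), and oocyte markers to 4914 to 5230 against 2822 to 3133 (3 of 8 higher, none lower). Intestine markers summed to 2552 to 2644 against 1556 to 1645 (3 of 6 higher, 1 lower). The 5 sperm markers tested did not follow, with sums of 163 to 215 against 208 in each C library (1 higher, 3 lower). The part of these lists in the differences from C was not tested. Over the 8 members the median log2 ratio was 1.05, beside −0.08 over all genes tested. It was 0.39 over the 2594 genes tested with 330 to 660 coding bases, of which 41.1% were higher and 22.1% lower.

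**Figure D2:**
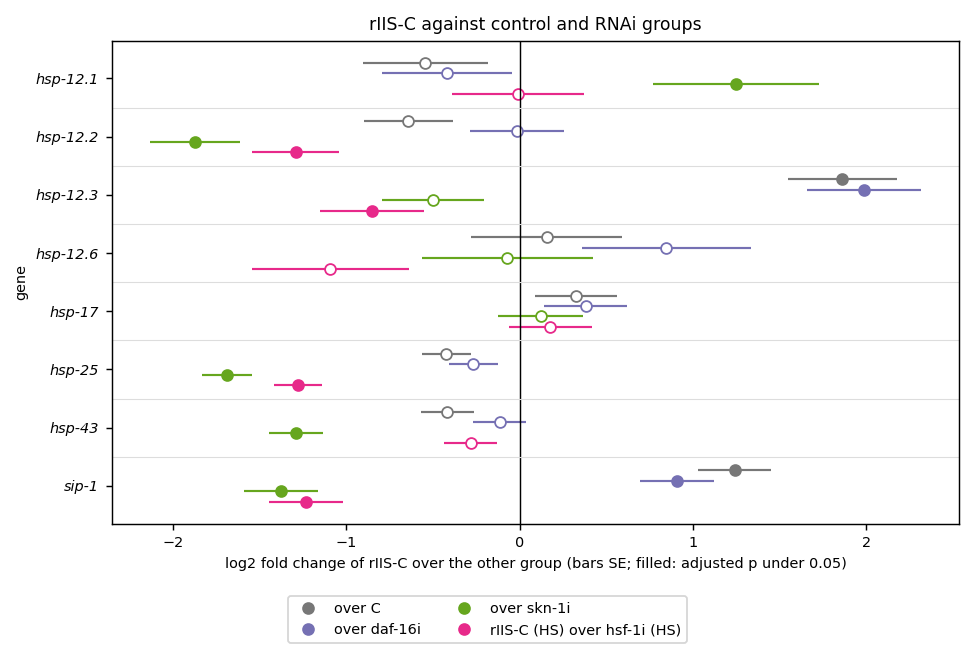
Log2 ratios of rIIS-C over C, daf-16i and skn-1i, and of rIIS-C (HS) over hsf-1i (HS) (x axis, bars are SE), for the 8 genes (y axis), with filled points for edgeR adjusted p under 0.05. The points of hsp-12.3 and sip-1 lie to the right of 0 over C and daf-16i, at 1.86 and 1.99 and at 1.24 and 0.91, while the filled points over hsf-1i (HS), and those over skn-1i other than hsp-12.1, lie to the left.

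RNAi of hsf-1, the gene of the heat shock factor, was compared between groups labelled as heat-shocked. Of the 8 members, 4 were higher in hsf-1i (HS) than in rIIS-C (HS) and none was lower. Of 13892 genes tested, 38.1% were called in either direction and 18.8% as higher in hsf-1i (HS). For hsp-25, 356 and 334 scaled CPM in hsf-1i (HS) stood against 146 and 139 in rIIS-C (HS), a log2 ratio of rIIS-C (HS) over hsf-1i (HS) of −1.28 (SE 0.14, edgeR adjusted p = 7.66e-05). For sip-1, 1787 and 1904 stood against 817 and 759 (−1.23, SE 0.21, edgeR adjusted p = 0.00102). The groups did not overlap in either gene, and each was called in all 12 alternatives run for it, although with library totals in place of TMM the values shrank to −0.48 for hsp-25 and −0.43 for sip-1. For hsp-12.2, 15.6 and 17.7 stood against 8.0 and 5.2 (−1.29, SE 0.25, edgeR adjusted p = 0.00213), and for hsp-12.3, 13.6 and 15.1 against 9.5 and 6.0 (−0.85, SE 0.30, edgeR adjusted p = 0.0418). Both lost their calls with library totals in place of TMM, with log2 ratios of −0.49 and −0.05, and the call of hsp-12.3 was also lost without rIIS-C (HS) replicate 2 or either hsf-1i (HS) library. All 4 genes kept their direction in both junction classes.

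The remaining members were not called there. The values were −1.09 for hsp-12.6 (SE 0.45, edgeR adjusted p = 0.0798), −0.28 for hsp-43, 0.18 for hsp-17 and −0.01 for hsp-12.1. The direction of hsp-43 depended on scaling: it was −0.28 with TMM and 0.52 with library totals (edgeR adjusted p = 0.025), where the median of all genes was 0.85 and hsp-17 was called at 0.98. The hsp-16 genes stood on the other side, all 6 higher in rIIS-C (HS) than in hsf-1i (HS) with a median log2 ratio of 4.19, beside −0.97 over the members and 0.05 over all genes tested. Of the 5 partner chaperones tested (hsp-1, hsp-110, dnj-12, dnj-13 and dnj-19, which refold or disaggregate proteins or assist in it), 3 were higher in rIIS-C (HS) and none lower. Body wall muscle markers moved with hsp-25, 7 of 8 being higher in hsf-1i (HS), with a summed level of 12054 to 12785 scaled CPM against 4455 to 4868 in rIIS-C (HS). Intestine markers were higher as well, 3 of 6 by the test with 1 lower. They summed to 4456.5 to 4503.5 against 2401 to 2515. Of the 8 oocyte markers, 0 were called by edgeR, 2 had an unadjusted p under 0.05 and 0 were called by DESeq2. Their median log2 ratio was 0.28, where sip-1 stood at −1.23. The part of any of these lists in the differences between hsf-1i (HS) and rIIS-C (HS) was not tested.

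Heat shock raised all 8 members in C, where 52.3% of 14084 genes were called. For hsp-17 the step was from 24.2 and 27.6 scaled CPM in C to 124 and 490 in C (HS), a log2 ratio of 3.56 (SE 0.50, edgeR adjusted p = 0.000113). The C (HS) libraries of hsp-17 were far apart, with replicate 2 the higher, and without that replicate the log2 ratio of hsp-17 was 2.26, below those of hsp-12.6 (2.99) and hsp-12.2 (2.41). The same held for sip-1, which stood at 342 and 346 in C and at 876 and 2818 in C (HS) (2.42, SE 0.41, edgeR adjusted p = 0.0004). In hsp-12.6 replicate 1 was instead the higher, with 1.2 and 1.1 scaled CPM in C and 9.2 and 3.5 in C (HS) (2.46, SE 0.51, edgeR adjusted p = 0.00142). For hsp-12.2 the levels were 6.8 and 8.5 in C and 40.7 and 26.9 in C (HS) (2.14, SE 0.29, edgeR adjusted p = 9.5e-05), and for hsp-25 they were 102 and 103 in C and 342 and 461 in C (HS) (1.96, SE 0.20, edgeR adjusted p = 1.49e-05). No library of C reached a library of C (HS) in any of these genes.

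The rises of the other 3 members were smaller and less stable. For hsp-12.1 the levels were 4.1 and 3.1 scaled CPM in C and 11.1 and 6.7 in C (HS) (1.31, SE 0.38, edgeR adjusted p = 0.0116), for hsp-12.3 they were 2.7 and 2.7 against 5.4 and 5.5 (1.01, SE 0.34, edgeR adjusted p = 0.0225), and for hsp-43 they were 147 and 157 against 203 and 220 (0.47, SE 0.18, edgeR adjusted p = 0.045). With library totals in place of TMM, which moved the median of all genes from 0.03 to −0.97, hsp-43 was lower in C (HS) (−0.53, edgeR adjusted p = 0.0357), hsp-12.3 stood at 0.01 and hsp-12.1 at 0.30. Relative to that median all 8 remained on the higher side. Leaving out C replicate 1 or C replicate 2 ended the calls of hsp-12.3 and hsp-43, and leaving out C replicate 2 or C (HS) replicate 1 that of hsp-12.1, while without C (HS) replicate 2 only hsp-43 was no longer called. The median over the members was 2.05, and the 6 hsp-16 genes, all higher, had a median of 7.69. The 2655 genes tested with 330 to 660 coding bases, the lengths of the members other than hsp-43, had a median of 0.95 in this comparison, and 52.3% of them were higher and 3.01% lower. The part of gene length in the rise of the members was not tested. Of the other genes with an α-crystallin domain (F08H9.3, F08H9.4, Y55F3BR.6 and ZK1128.7), 3 of 4 rose, and all 5 partner chaperones tested rose, with medians of 2.26 and 1.73. Marker sums were higher too, apart from sperm. The 5 sperm markers tested summed to 127 to 211 scaled CPM against 208 in each C library (none higher, 1 lower). Body wall muscle markers summed to 7775 to 11874 scaled CPM against 3882 to 4030 in C (6 of 8 higher, 2 lower). Oocyte markers summed to 3510 to 6338 against 2822 to 3133 (1 of 8 higher, none lower). Intestine markers summed to 2736 to 3297 against 1556 to 1645 (3 of 6 higher, 1 lower). The part of these lists was not tested.

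Between rIIS-C and the libraries labelled rIIS-C (HS), 1 member rose, where 2.21% of 14084 genes were called. For hsp-25 the levels were 81.4 and 72.1 scaled CPM in rIIS-C and 146 and 139 in rIIS-C (HS), a log2 ratio of 0.89 (SE 0.20, edgeR adjusted p = 0.032). Both libraries labelled rIIS-C (HS) lay above both of rIIS-C. Body wall muscle markers summed to 4455 to 4868 scaled CPM in the former and 2029 to 2633 in the latter (3 of 8 higher, none lower), and intestine markers to 2401 to 2515 and 1069 to 1483 (3 of 6 higher, none lower). Their part in the hsp-25 difference was not tested. The call was lost without any one of the 4 libraries, with edgeR adjusted p from 0.0707 to 0.18, and with library totals in place of TMM (0.59, edgeR adjusted p = 0.0869). For hsp-43, 107 and 120 in rIIS-C stood against 190 and 158 in rIIS-C (HS), without overlap and without a call (0.61, SE 0.19, edgeR adjusted p = 0.11). For hsp-17, 24.4 and 39.4 stood against 53.7 and 38.1, which overlap (0.52, SE 0.46, edgeR adjusted p = 0.614). The value of sip-1 was −0.04 (SE 0.39), with 1018 and 605 in rIIS-C and 817 and 759 in the libraries labelled rIIS-C (HS), inside the range of the first pair. The other members lay between −0.30 (hsp-12.3) and 0.56 (hsp-12.1). The median over the members was 0.49, beside −0.03 over all genes tested and 0.23 over the 2655 genes of 330 to 660 coding bases.

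The difference between the heat responses (the change between groups labelled heat-shocked and 20 °C), rIIS-C minus C, was tested directly and was called for 5 members, all with the smaller response in rIIS-C, where 20.5% of 14084 genes were called. It was −3.05 for hsp-17 (SE 0.66, edgeR adjusted p = 0.00923), −2.57 for hsp-12.6 (SE 0.76, edgeR adjusted p = 0.0319) and −2.47 for sip-1 (SE 0.56, edgeR adjusted p = 0.0115). It was −1.67 for hsp-12.2 (SE 0.42, edgeR adjusted p = 0.0173) and −1.07 for hsp-25 (SE 0.27, edgeR adjusted p = 0.0186). The sizes and their order rested in part on C (HS) replicate 2. Without it the values were −1.75 for hsp-17, −3.11 for hsp-12.6, −1.39 for sip-1, −1.93 for hsp-12.2 and −0.83 for hsp-25. For sip-1 the smaller response started from a higher level, since rIIS-C already held 1018 and 605 scaled CPM where C held 342 and 346. For hsp-12.3 the difference was −1.31 (edgeR adjusted p = 0.061), for hsp-12.1 −0.75 and for hsp-43 0.14, and these were not called. The median over the members was −1.49, over the 6 hsp-16 genes −8.96, over all genes tested −0.02 and over the 2655 genes of 330 to 660 coding bases −0.73. Leaving out C replicate 1 left hsp-17 as the only call of the 8, and C replicate 2, rIIS-C replicate 2 and rIIS-C (HS) replicate 2 left 3, 3 and 2. In a fit of only the 4 groups compared hsp-17 alone was called. With library totals in place of TMM, where the median of all genes was 0.66, hsp-17 and sip-1 remained among the genes with the smaller response, hsp-12.2, hsp-12.6 and hsp-25 were no longer called, and hsp-43 was called with a larger response in rIIS-C (0.82, edgeR adjusted p = 0.0442).

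**Figure D3:**
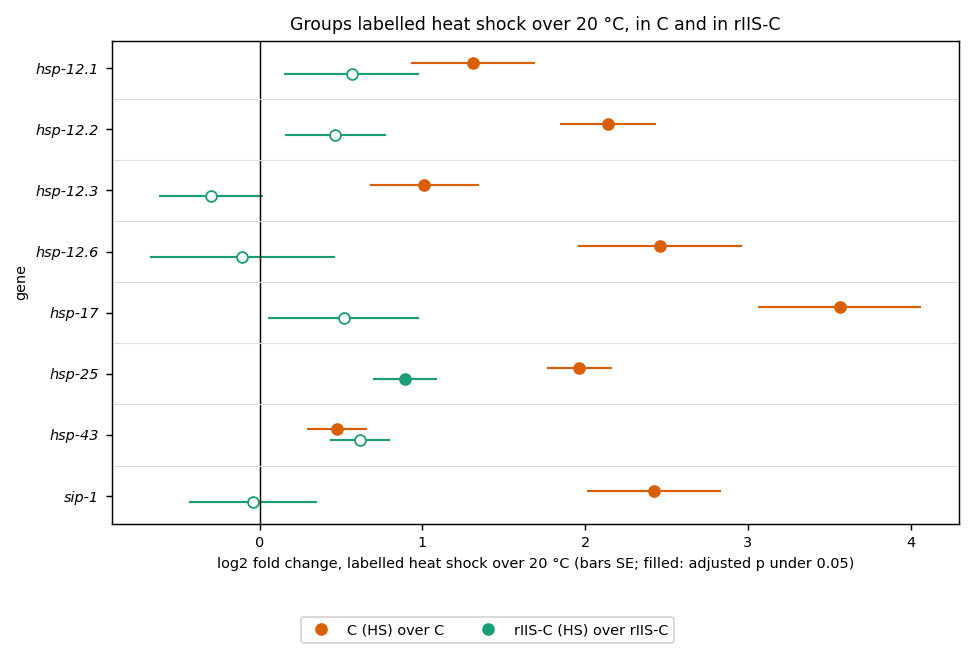
Log2 ratios of the libraries labelled heat-shocked over those at 20 °C, in C and in rIIS-C (x axis, bars are SE) for the 8 genes (y axis), with filled points for edgeR adjusted p under 0.05. All 8 points of C lie to the right of 0, from 0.47 (hsp-43, −0.53 with library totals in place of TMM) to 3.56 (hsp-17), and those of rIIS-C lie between −0.30 and 0.89 with hsp-25 as the filled one.

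In the libraries labelled rIIS-C (HS), whose hsp-16 genes went against the label, 4 members had lower levels than in C (HS) and none had a higher one, where 24.9% of 13149 genes were called. For hsp-17, 53.7 and 38.1 scaled CPM stood against 124 and 490 (log2 ratio −2.77, SE 0.55, edgeR adjusted p = 0.0137), and without C (HS) replicate 2 the value was −1.43. The values were −2.52 for hsp-12.6 (1.4 and 0.80 scaled CPM against 9.2 and 3.5, edgeR adjusted p = 0.0268), −2.40 for hsp-12.2 (8.0 and 5.2 against 40.7 and 26.9, edgeR adjusted p = 0.00629) and −1.55 for hsp-25 (146 and 139 against 342 and 461, edgeR adjusted p = 0.00629). None of these groups overlapped. Without C (HS) replicate 2, hsp-12.6 and hsp-12.2 stood at −2.96 and −2.58. Body wall muscle markers summed to 4455 to 4868 scaled CPM in rIIS-C (HS) and 7775 to 11874 in C (HS), 5 of 8 being lower and 1 higher, and their part in the hsp-25 difference was not tested. For sip-1, 817 and 759 stood against 876 and 2818 (−1.26, edgeR adjusted p = 0.0677), so the size of its gap rested on C (HS) replicate 2, and without C (HS) replicate 1 it passed the test (−1.85, edgeR adjusted p = 0.000244). The values of hsp-12.1, hsp-43 and hsp-12.3 were −1.40, −0.34 and 0.46 (edgeR adjusted p = 0.0585, 0.3 and 0.362). Without rIIS-C (HS) replicate 2 no member was called, and without rIIS-C (HS) replicate 1 the calls were 2. With library totals in place of TMM, which moved the median of all genes to 0.80, hsp-12.6 (−1.63) and hsp-25 (−0.68) lost their calls and hsp-12.3 was called higher (1.34, edgeR adjusted p = 0.019). The median over the members was −1.47, beside −0.07 over all genes tested and −0.76 over the 2493 genes of 330 to 660 coding bases.

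Against C (HS), hsf-1i (HS) showed 1 member higher and 1 lower, where 21.3% of 13149 genes were called. The lower gene was hsp-17, with 40.0 and 41.5 scaled CPM against 124 and 490 (log2 ratio −2.89, SE 0.56, edgeR adjusted p = 0.0123). The higher gene was hsp-12.3, with 13.6 and 15.1 against 5.4 and 5.5 (1.38, SE 0.36, edgeR adjusted p = 0.0318). Each call was lost when either hsf-1i (HS) library was left out. For sip-1 the 2 hsf-1i (HS) libraries (1787 and 1904) fell between those of C (HS) (876 and 2818), so its direction turned on which C (HS) library was used. It was −0.58 without C (HS) replicate 1 (edgeR adjusted p = 0.0231) and 1.04 without C (HS) replicate 2 (edgeR adjusted p = 0.00415), beside 0.01 with both. The levels of hsp-25 and hsp-43 differed by −0.22 and −0.01 and overlapped. For hsp-12.6, hsp-12.1 and hsp-12.2 the values were −1.38, −1.33 and −1.05 (edgeR adjusted p = 0.14, 0.0781 and 0.0677), and without C (HS) replicate 2 these 3 were called as lower. The hsp-16 genes were all lower in hsf-1i (HS), with a median of −10.88, beside −0.63 over the members. Over the 2493 genes of 330 to 660 coding bases the median was −0.47, with 6.30% higher and 20.1% lower. C (HS) and hsf-1i (HS) differ in both the daf-2 allele and the RNAi, which cannot be told apart here.

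**Figure D4:**
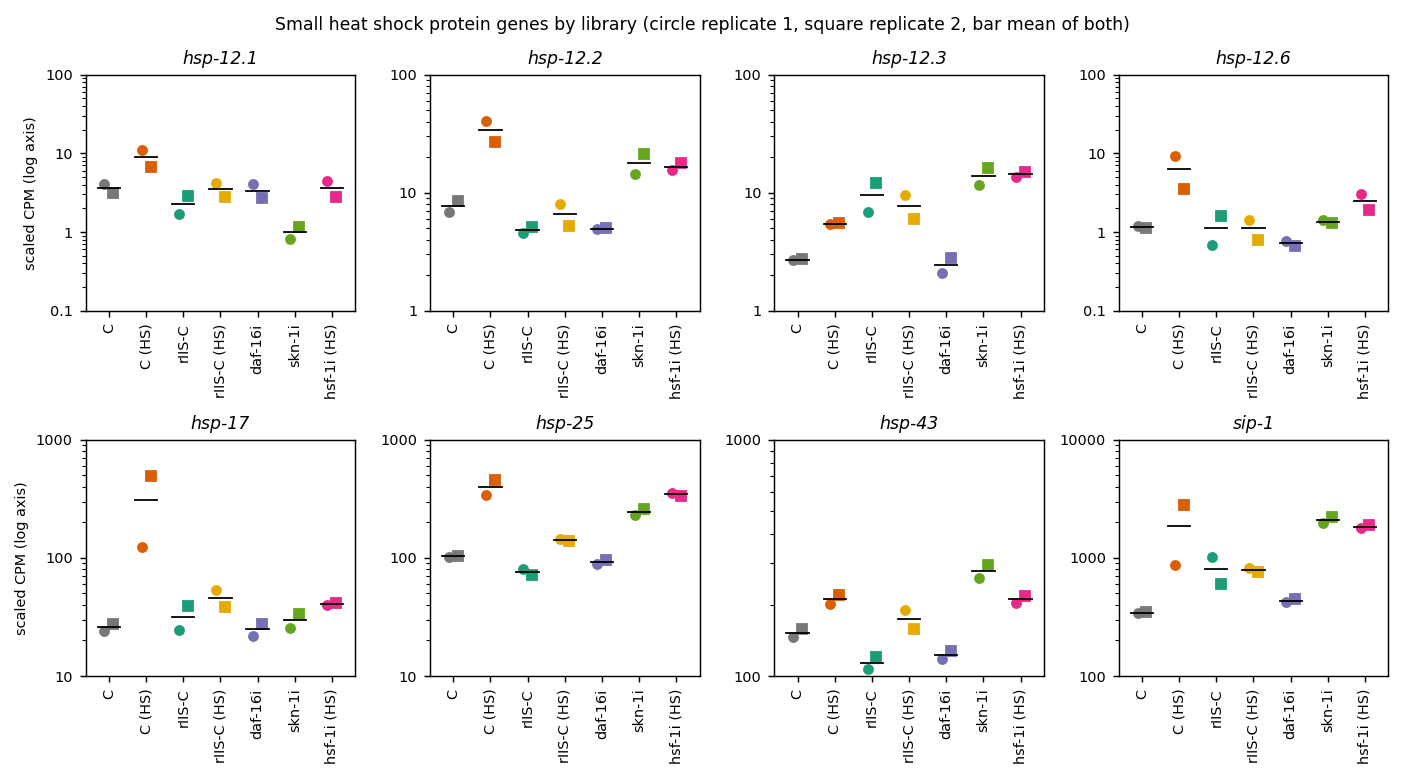
Scaled CPM (y axis, log scale, range differs between panels) of the 8 genes in the 7 groups (x axis), with circles for replicate 1, squares for replicate 2 and a bar for the mean. For hsp-17 the 2 C (HS) points (124 and 490) stand above all others, whereas the sip-1 points of skn-1i (1988 and 2224) and hsf-1i (HS) (1787 and 1904) lie inside the range of C (HS) (876 and 2818).

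Across the 7 groups the members followed several patterns rather than 1. The plot of scaled CPM by group shows hsp-17, hsp-12.6, hsp-12.2, hsp-12.1 and hsp-25 highest in C (HS) by group mean, hsp-43 and sip-1 highest in skn-1i, and hsp-12.3 highest in hsf-1i (HS). By library, some of these highest groups overlapped with another group. This held for hsp-25 in C (HS) with hsf-1i (HS), sip-1 in skn-1i with C (HS), and hsp-12.3 in hsf-1i (HS) with skn-1i. As a description over 7 group means of log2(CPM + 0.5), with shared libraries and scaling behind every value, Pearson's r between members ran from −0.43 (hsp-12.1 with hsp-12.3) to 0.95 (hsp-12.2 with hsp-25). The chromosome IV neighbours hsp-12.3 and hsp-12.6 had an r of 0.24, and the chromosome X pair hsp-25 and hsp-43 had 0.86. Among 9359 genes whose highest group mean reached 10 CPM (9360 for hsp-12.1 and hsp-12.6), the most similar pattern over the 7 groups was that of spp-2, lys-7 and hex-1 for hsp-12.3 (r of 0.978, 0.974 and 0.973). It was dlst-1, ZK829.7 and far-1 for hsp-25 (0.998, 0.997 and 0.996) and T22D1.5, ZK632.10 and T23G11.7 for sip-1 (0.996, 0.996 and 0.991). It was vig-1, cey-1 and rpl-27 for hsp-12.2 (0.994, 0.991 and 0.991), spcs-2, drr-2 and vps-2 for hsp-17 (0.997, 0.995 and 0.994) and R07E3.1, col-65 and T25G12.3 for hsp-43 (0.985, 0.985 and 0.981). It was C34D4.3, hel-1 and ZK637.14 for hsp-12.1 (0.996, 0.995 and 0.991) and snpc-3.2, Y106G6H.13 and lido-11 for hsp-12.6 (0.995, 0.994 and 0.993). With 7 points and this many genes, values this near 1 are found for every member.

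Intron and junction reads add a readout that the exon totals do not hold. Intron reads were few: over all libraries they were 2 for sip-1, whose intron is short, and 3 to 6 for the HSP-12 genes, against 160 for hsp-17, 247 for hsp-25 and 426 for hsp-43. Of the gene reads of hsp-17, 3.29% and 4.85% lay in introns in C, 4.61% and 4.67% in rIIS-C and 1.59% and 0.11% in C (HS), where its exon reads were highest. The shares of hsp-17 were 2.42% and 3.94% in daf-16i and 1.31% and 1.04% in rIIS-C (HS). In skn-1i hsp-17 had 0 intron reads in both libraries, beside 127 and 286 exon reads. By the limit of 3 reads this allows shares of up to 2.36% and 1.05%. In hsf-1i (HS) it had 0 and 1 intron reads, beside 300 and 242 exon reads. In hsp-43, C (HS) replicate 1 stood apart with 185 intron reads, or 5.74% of its gene reads, against 22 reads and 0.79% in replicate 2 of the same group. Reads across a junction made up 51.0% to 55.5% of the exon reads of hsp-25 in the class with more junction reads and 24.9% to 29.1% in the other.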

How the data were processed

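Whole-worm RNA was sequenced in 14 libraries, 2 per group, and groups and replicate numbers came from the sample labels. The submitters' processing notes name CASAVA 1.8.2 for base calling, and the authors trimmed and mapped the reads to WBcel235 in CLC Genomics Workbench. The deposited read counts per gene are whole exon, junction and intron reads made by the authors without scaling between libraries. The deposited RPKM values were made by the authors from exon reads, exon length and mapped reads. Gene models hold coding exons, since 95.4% of exon lengths are multiples of 3. Beside the tables, 6 columns of values that name no sample were not used.

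Exon counts were fitted with edgeR 4.0.16 (filterByExpr, TMM, a coefficient per group, two-sided quasi-likelihood test) in R 4.3.3, with Benjamini-Hochberg adjustment over all genes tested and calls at an adjusted p under 0.05. Comparisons without C (HS) used 12 libraries, those of C (HS) with other groups labelled heat-shocked 6, and heat responses all 14, with common dispersions of 0.0275, 0.0813 and 0.0508. Alternatives were DESeq2 1.42.0, limma 3.58.1 on log2(RPKM + 1), other size factors, no filter on low counts, other sets of libraries, replicate blocks and leaving out each library. Library totals in place of TMM were added after the data were seen. The steps were tested on simulated data. Levels between genes are compared as RPKM. Python 3.11.15 with numpy 2.4.6, pandas 2.3.3 and matplotlib 3.10.9 was used for tables and figures.

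The rule for named genes took all 8 members in every comparison, the genes of the comparison and marker lists (given here mainly as counts and sums), and for each member the 3 genes with the most similar group means of log2(CPM + 0.5). Members and lists were chosen with earlier results of these data known. In the files daf-21 and trp-3 are not found under these names, so 5 of 6 genes were used in their lists. The sums for sperm markers (gsp-3, gsp-4, spe-9, spe-11 and spe-38, 127 to 327 scaled CPM over all libraries) and intestine markers (1069 to 4503) were computed with the others. Sequences of promoters and proteins were not analysed here.

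Replicate numbers of the labels did not pair the samples. The differences between the 2 libraries of a group correlated between groups from −0.37 to 0.32, above 0.1 in 10 of 21 pairs. Ordered by junction share, they correlated above 0.1 in 15 of 15 pairs of groups without C (HS) (0.116 to 0.373), so a block by this class was also fitted, with both C (HS) libraries set midway. Limits and shares cover counting error only.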

Additional observations from a re-analysis of the deposited data

Results flagged for a closer look

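The response to heat shock, as the libraries are labelled, differed between C and rIIS-C, by a test of the difference itself, in 5 of the 8 genes, each time with the smaller log2 response in rIIS-C. Of 14084 genes tested, 20.5% were called in either direction and 10.6% on this lower side. Among the 2655 genes of 330 to 660 coding bases, 21.3% were called on the lower side. The difference was −3.05 for hsp-17 (SE 0.66, edgeR adjusted p = 0.00923), −2.57 for hsp-12.6 (edgeR adjusted p = 0.0319), −2.47 for sip-1 (edgeR adjusted p = 0.0115), −1.67 for hsp-12.2 (edgeR adjusted p = 0.0173) and −1.07 for hsp-25 (edgeR adjusted p = 0.0186). The members called rested on the same C (HS) and rIIS-C (HS) libraries as the difference in the hsp-16 genes, whose summed RPKM was 883 and 511 in rIIS-C (HS) and 44447 and 37676 in C (HS). Among the 5, hsp-17 kept its call in 15 of 16 alternatives, sip-1 in 13, hsp-12.2 and hsp-25 in 10 each and hsp-12.6 in 8. The sizes were less stable. Without C (HS) replicate 2 the difference was −1.75 for hsp-17, −3.11 for hsp-12.6, −1.39 for sip-1, −1.93 for hsp-12.2 and −0.83 for hsp-25.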

How the results depend on the processing

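Of 1088 comparisons of a member's log2 ratio with an alternative, 956 kept direction and side of the threshold, a number that counts 49 sign changes of values that were never called, 88 lost a call, 37 gained one and 7 turned direction. Of 136 counts of members called, 103 stayed within 1.5 times. The cause of the changes was not tested. With library totals in place of TMM, 0 members were called for rIIS-C (HS) against rIIS-C and 3 for the difference between heat responses, and hsp-43 turned to 0.52 in rIIS-C (HS) against hsf-1i (HS) and to −0.53 in C (HS) against C. With limma on log2(RPKM + 1), which lacks TMM too, the counts were 2 (rIIS-C (HS) against C (HS): hsp-12.3 higher, 1.24, and hsp-12.2 lower), 5 (C (HS) against C, 4 higher and 1 lower), 0 (rIIS-C (HS) against rIIS-C) and 1 (difference between heat responses: hsp-43, 0.88 with the larger response in rIIS-C, while the 5 members called with TMM lost their calls). There hsp-43 turned to 0.49 (rIIS-C (HS) against hsf-1i (HS)), −0.59 (C (HS) against C) and −0.040 (skn-1i against C), and hsp-12.3 to −0.050 (C (HS) against C). In 1 fit of all 14 libraries, the counts were 1 (rIIS-C against C), 1 (rIIS-C against daf-16i) and 4 (hsf-1i (HS) against C (HS)), and in fits of only the groups compared 5 (C (HS) against C), 0 (rIIS-C (HS) against rIIS-C) and 1 (difference between heat responses). DESeq2 called 2 for rIIS-C (HS) against rIIS-C, and no filter on low counts gave 4 for hsf-1i (HS) against C (HS).

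The label numbers do not pair the samples, and a replicate block on them gave from 0 (daf-16i against C) to 7 calls (C (HS) against C), each count within 1.5 times that without it. The block by junction class gave 5 for rIIS-C against C and 1 for hsf-1i (HS) against C (HS). In it hsp-12.3 became a call in rIIS-C against skn-1i (edgeR adjusted p = 0.046) and in the difference between heat responses (edgeR adjusted p = 0.026), and lost its call in hsf-1i (HS) against C (HS) (edgeR adjusted p = 0.0587), as did hsp-12.6 in rIIS-C (HS) against C (HS) (edgeR adjusted p = 0.0567).

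Leaving out each library gave 2 to 3 calls (rIIS-C against C), 0 to 5 (rIIS-C (HS) against C (HS)), 1 to 2 (rIIS-C against daf-16i), 4 to 5 (rIIS-C against skn-1i), 3 to 4 (rIIS-C (HS) against hsf-1i (HS)), 5 to 7 (C (HS) against C), 0 in each case (rIIS-C (HS) against rIIS-C), 1 to 6 (difference between heat responses) and 0 to 6 (hsf-1i (HS) against C (HS)). The lone library of a group was then assumed to vary like the others. For sip-1 the log2 ratio of hsf-1i (HS) over C (HS) ran from −0.58 to 1.04. Depth limits hsp-12.1 and hsp-12.6, with 4 reads in their shallowest libraries.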
